A study of Saccharomyces cerevisiae with 17 samples.

Results

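The 8 yeast gene identifiers described here lie next to genes of RNA polymerase III, and were chosen by that position and with their counts known, out of 5797 identifiers in each count table. For 7 of them, TGL2, PMT7, MIC19, COQ6, YJL028W, YIL102C and RPC17, the nearest gene upstream is a tRNA gene on the opposite strand that is transcribed away from the identifier (a divergent neighbour). For the eighth, YER137C, it is SCR1, which encodes the RNA component of the signal recognition particle. In the poly(A)-selected libraries, 6 of the 7 identifiers with enough counts to compare were at least 10.7-fold lower after phosphatase treatment, and PMT7 was 3.35-fold higher. Over all 1679 identifiers compared, 15.6% were at least 2-fold lower and 22.2% higher. In the poly(A)-selected library without phosphatase, YER137C, MIC19 and PMT7 were at least 2-fold lower than after ribosomal RNA depletion. YIL102C, YJL028W, COQ6 and TGL2 were at least 2-fold higher. Of all 1646 identifiers compared there, 38.0% were lower and 31.9% higher, and whether the members' shares differ from these was not tested.

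All samples described here were wild-type cells of BY4741, a MATa laboratory strain that carries deletions at the marker loci HIS3, LEU2, MET15 and URA3, grown in rich YPD medium to an optical density of 0.8. RNA 5′ ends were recorded by SMORE-seq, which ligates an adapter to RNA 5′ ends. The groups were poly(A)-selected RNA treated with CIP and then TAP (CIP/TAP, 1 library), poly(A)-selected RNA treated with TAP (TAP, 1 library), and RNA depleted of ribosomal RNA (3 samples, deposited as 1 table). For the ribo depletion samples the labels name neither enzyme. The tables held 1097457 counts for CIP/TAP, 864536 for TAP and 2821480 for ribo depletion, so that a count of 0 allows up to 2.73, 3.47 and 1.06 CPM (counts scaled to an equal table total) in that order. Of these loci, LEU2, URA3 and MET17 (another name of MET15) were at 0 in all 3 tables, and HIS3, which has a protein-coding gene as divergent neighbour, had 730, 650 and 655 counts in CIP/TAP, TAP and ribo depletion.

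RNA polymerase III makes tRNAs, the 5S ribosomal RNA, the U6 spliceosomal RNA and SCR1. Its transcripts receive no cap in general and begin with a triphosphate, and the 5′ end of a mature tRNA, cut by RNase P, carries a single phosphate. TAP (tobacco acid pyrophosphatase) turns a cap or a triphosphate into a single phosphate, which the ligation needs. CIP, a phosphatase from calf intestine, strips uncapped ends of their phosphates, so that TAP cannot make them ligatable, while it leaves capped ends untouched. Most polymerase III products also lack the long poly(A) tail that messenger RNAs carry.

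A count listed under an identifier is not described here as the expression of that gene. The sources used here do not state which region was counted, or on which strand, so reads from the identifier, from its divergent neighbour and from transcripts antisense to either could not be told apart. No group had replicate values, so no test between groups was run. Each ratio carries an exact 95% interval that covers counting error only. Overlapping intervals do not show that identifiers were equal, and no direct test between identifiers was run.

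The identifiers lie on 6 chromosomes, given in coordinates of the R64 assembly. TGL2 (YDR058C, chromosome IV, 567723 to 568703) encodes a mitochondrial lipase, and 178 bp separate it from the tRNA gene YNCD0011W (568882 to 568953). A second tRNA gene, YNCD0012W, follows on the same strand after 10 bp, so TGL2 is the member with a tandem pair of tRNA genes beside it. MIC19 (YFR011C, chromosome VI, 166746 to 167258) encodes a subunit of the MICOS complex of the inner mitochondrial membrane and lies 178 bp from SUP11, a tyrosine tRNA gene (167437 to 167525). COQ6 (YGR255C, chromosome VII, 1002523 to 1003962) encodes a monooxygenase of ubiquinone synthesis and lies 253 bp from YNCG0046W (1004216 to 1004287). RPC17 (YJL011C, chromosome X, 414285 to 414770) itself encodes a subunit of RNA polymerase III and lies 195 bp from YNCJ0018W (414966 to 415038).

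Among the others, YJL028W (chromosome X, 391311 to 391646) lies 195 bp from EMT5, a methionine tRNA gene (391043 to 391115). YIL102C (chromosome IX, 174582 to 174887) has the shortest gap of the 8, 143 bp to YNCI0002W (175031 to 175103). PMT7 (YDR307W, chromosome IV, 1075865 to 1077853), named as a member of the protein mannosyltransferase family, has the widest, 320 bp to YNCD0022C (1075472 to 1075544). YER137C (chromosome V, 441373 to 441819) lies 167 bp from SCR1 (441987 to 442508).

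**Figure D1:**
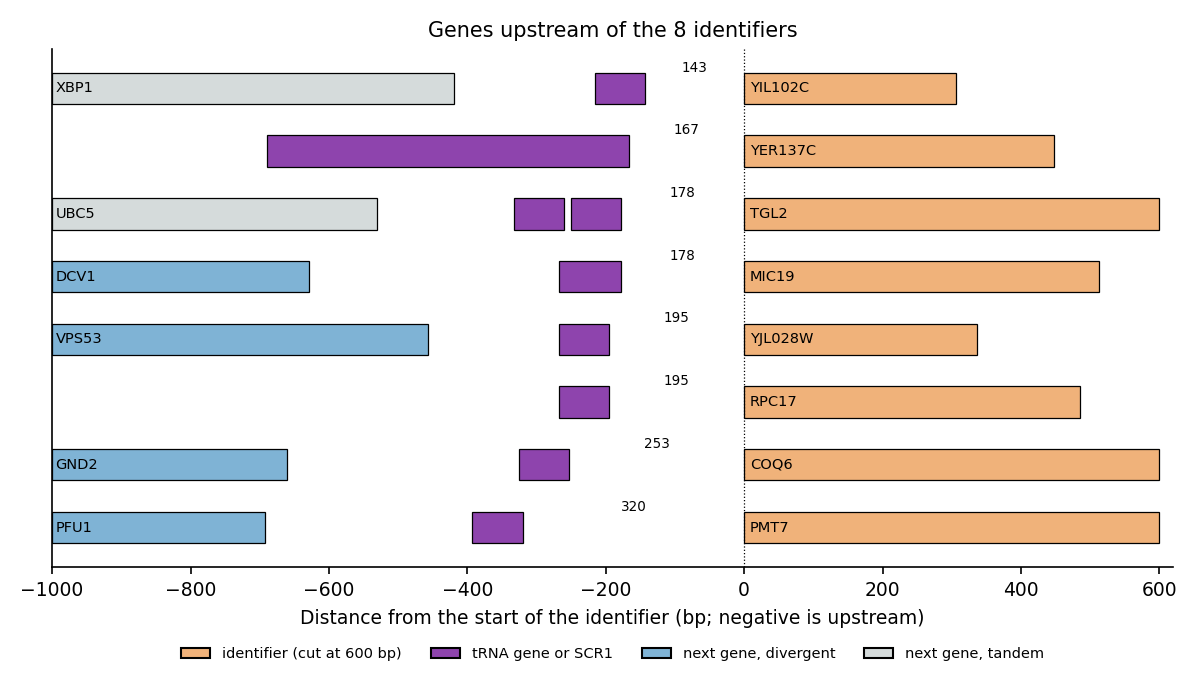
Positions of the 8 identifiers (orange, cut at 600 bp), their tRNA gene or SCR1 (purple) and the next gene beyond it (blue where divergent from the identifier, grey where tandem), by distance in bp from the start of the identifier, with the bases between printed above each gap. The gap runs from 143 bp for YIL102C at the top to 320 bp for PMT7 at the bottom.

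The genes beyond the tRNA genes held almost no counts. For COQ6, MIC19, YJL028W and PMT7 the next gene is also divergent, namely GND2 at 661 bp, DCV1 at 629 bp, VPS53 at 457 bp and PFU1 at 693 bp from the identifier's start, and these 4 identifiers had 0 counts in every table. For each of these 4 next genes the tRNA gene is a tandem (same-strand) upstream neighbour, and few such identifiers had counts. Of 100 with a tandem tRNA gene within 500 bp, 6%, 5% and 7% had at least 10 counts in CIP/TAP, TAP and ribo depletion. UBC5 beyond the tRNA genes of TGL2 had 0, 0 and 1 counts in CIP/TAP, TAP and ribo depletion, and XBP1 beyond that of YIL102C had 0, 0 and 5. For RPC17 and YER137C the next gene is another tRNA gene, 1160 and 1382 bp away, for which the tables hold no identifier. On the downstream side, YOS9, which lies 167 bp beyond the end of TGL2, had 1791, 1856 and 3142 counts, and YJL027C, 186 bp beyond the end of YJL028W, had 877, 1134 and 1244. Beside them, TGL2 had 14 counts in CIP/TAP and 386 in TAP, and YJL028W had 0 and 72.

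The 7 identifiers beside tRNA genes held 98 counts in CIP/TAP (0.00893% of the table), 970 in TAP (0.112%) and 1366 in ribo depletion (0.0484%). Their counts ranged between 0 and 47 in CIP/TAP with a median of 6, between 12 and 386 in TAP with a median of 108, and between 0 and 1016 in ribo depletion with a median of 25. YER137C stood far above them, with 116, 4094 and 47473 counts. It was the identifier with the seventh highest count of the ribo depletion table (1.68% of it), ranked 30 in TAP and ranked 899 in CIP/TAP.

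The order of the members changed with the library. These orders are of listed counts, not of RNA per length, since the counted region is not known. In CIP/TAP, PMT7 followed YER137C with 42.8 CPM (exact 95% interval 31.5 to 56.9), ahead of COQ6 with 23.7 (15.5 to 34.7) and TGL2 with 12.8 (6.97 to 21.4), and the intervals of PMT7 and COQ6, and of COQ6 and TGL2, overlapped. In TAP, PMT7 was the lowest of the 8 with 13.9 CPM (7.17 to 24.2), an interval that overlaps that of RPC17 (22.5 to 48.2), and TGL2 came after YER137C with 446 (403 to 493), then COQ6 with 288 (253 to 326). The intervals of YIL102C with 132 CPM (109 to 158) and MIC19 with 125 (102 to 151) overlapped in TAP. In ribo depletion MIC19 led the 7 with 360 CPM (338 to 383), TGL2 had 67.7 (58.4 to 78.0) and PMT7 39.3 (32.4 to 47.4), while RPC17 with 8.86 (5.73 to 13.1) and COQ6 with 7.80 (4.89 to 11.8) overlapped.

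**Figure D2:**
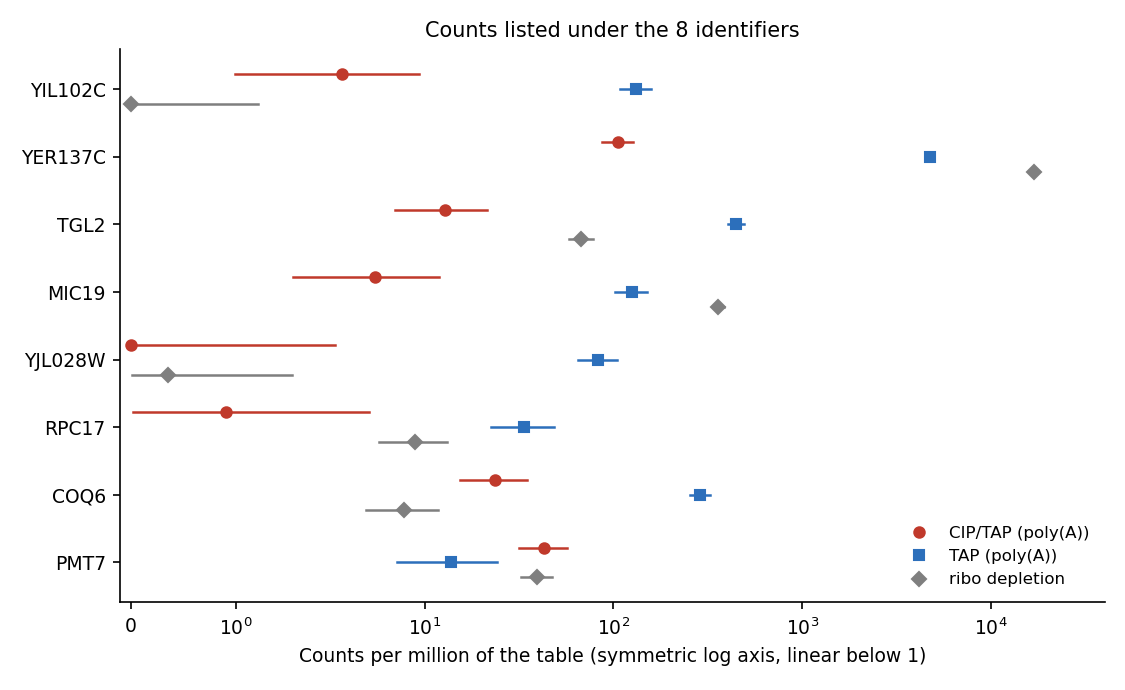
CPM listed under each identifier (symmetric log axis, linear below 1) in CIP/TAP (red circles), TAP (blue squares) and ribo depletion (grey diamonds), with exact 95% counting intervals as bars. TAP lies above CIP/TAP for 7 identifiers and below it for PMT7.

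CIP/TAP against TAP asks which 5′ ends depend on phosphates that a cap does not protect. Of the 8 members, 7 had at least 50 counts over both libraries and were measured, and of these 6 were at least 2-fold lower in CIP/TAP and 1 was at least 2-fold higher. The shares over all measured identifiers were 15.6% lower and 22.2% higher. The members' median log2 ratio was −4.85, or −4.77 with YJL028W set at its bound, and that of all measured identifiers was 0.16. The members were chosen with these ratios known, so their count and median describe them and test nothing.

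YER137C beside SCR1 had 116 counts in CIP/TAP and 4094 in TAP. This is a log2 ratio of −5.32 (95% interval −5.60 to −5.06), so that 2.51% of the scaled TAP count was left (2.06 to 3.00%). It is the most precisely measured of the 8, since it rests on the most counts.

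TGL2 had 14 counts in CIP/TAP and 386 in TAP, which leaves 3.30% of the scaled TAP count (1.73 to 5.42%). Its log2 ratio was −4.92 (−5.85 to −4.20), and its interval overlaps that of YER137C. YIL102C, the identifier nearest to its tRNA gene, had 4 counts in CIP/TAP and 114 in TAP, at −4.85 (−6.92 to −3.62). MIC19 beside SUP11 had 6 and 108, at −4.24 (−5.83 to −3.18). These 3 identifiers and YER137C had overlapping intervals.

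YJL028W beside EMT5 was at 0 in CIP/TAP and had 72 counts in TAP, at least 27.3-fold lower. RPC17 had 1 count in CIP/TAP and 29 in TAP and was under the minimum for a comparison. Its log2 ratio was −4.48 with a wide interval of −10.39 to −2.45, all of it below a 2-fold decrease. COQ6 retained more than several of the others. It had 26 counts in CIP/TAP and 249 in TAP, which leaves 9.35% of the scaled TAP count (5.89 to 13.8%) at a log2 ratio of −3.42 (−4.09 to −2.86). This interval does not overlap those of YER137C, TGL2 and YJL028W, but does overlap those of MIC19, YIL102C and RPC17.

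PMT7 went against the rest, with 47 counts in CIP/TAP and 12 in TAP. Its log2 ratio was 1.74 (0.85 to 2.84), with a lower limit under the 2-fold line. Of 28 pairs among the 8 members, 10 had intervals that did not overlap, and 7 of those pairs are PMT7 with each of the other members. PMT7 is also the member farthest from its tRNA gene; the part of that distance in its ratio was not tested.

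**Figure D3:**
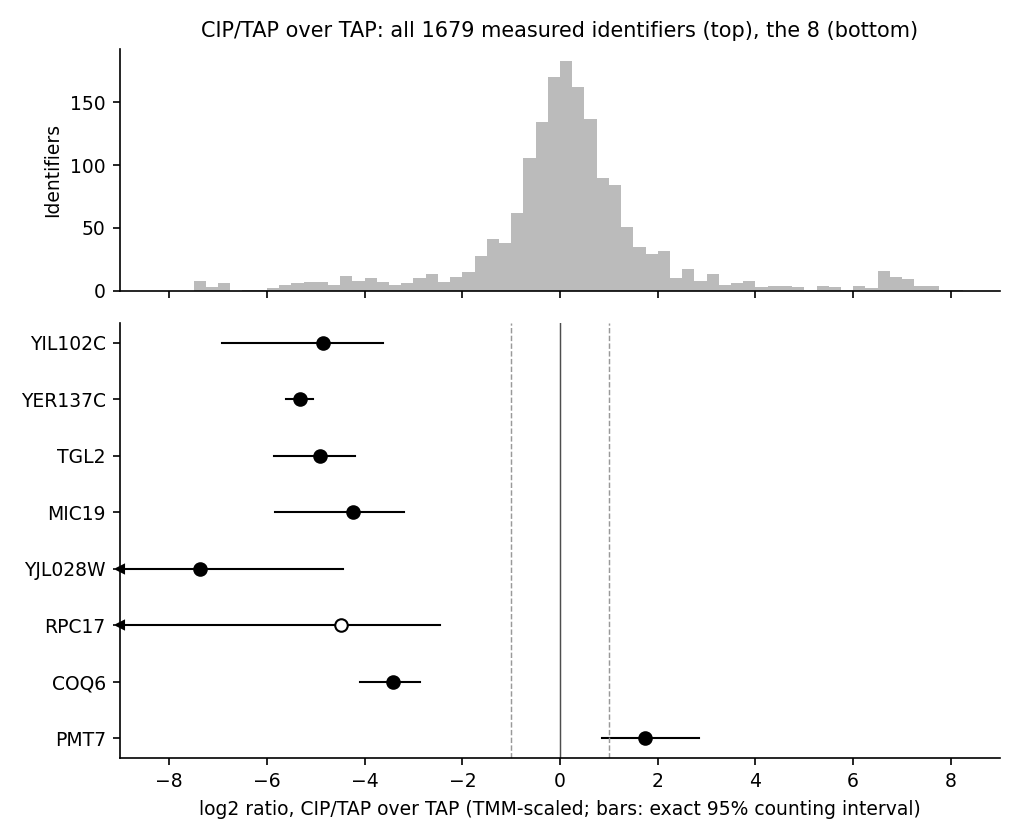
Log2 ratio of CIP/TAP over TAP for all 1679 measured identifiers (histogram, top) and for the 8 identifiers (bottom; bars are exact 95% counting intervals, arrowheads mark bars that run past the axis, the open circle is RPC17, which had too few counts, and the point of YJL028W, at 0 in CIP/TAP, depends on the 0.5 added to each count). The points lie between −7.36 and −3.42 except PMT7 at 1.74, and the dashed lines mark 2-fold.

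Both comparisons with ribo depletion use the same ribo depletion table, and TAP also enters the comparison above, so the values are not independent of each other. In each of them poly(A) selection and enzyme treatment cannot be told apart. For TAP over ribo depletion all 8 members were measured, of which 3 were at least 2-fold lower and 4 higher. Among all 1646 measured identifiers 38.0% were lower and 31.9% higher. The members' shares were 37.5% and 50%, and whether they differ from those of all identifiers was not tested. The median log2 ratio of the members was 1.03, against −0.18 for all measured identifiers. With total counts in place of TMM scaling, the median of all measured identifiers moved by 1.28. Of all identifiers 23.1% were then lower and 51.6% higher, and of the members 3 were lower and 5 higher.

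The lower ones were YER137C, MIC19 and PMT7. YER137C had 4094 counts in TAP against 47473 in ribo depletion, at −3.11 (−3.16 to −3.07). MIC19 had 108 and 1016, at −2.81 (−3.11 to −2.52). PMT7 had 12 and 111, at −2.74 (−3.78 to −1.93), so that MIC19, which lost most of its TAP count with CIP, and PMT7, which did not, had overlapping intervals here.

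The higher ones were 4 identifiers beside tRNA genes. YIL102C had 114 counts in TAP and was at 0 in ribo depletion, at least 50.9-fold higher. YJL028W had 72 and 1, at 6.02 (4.07 to 11.92). COQ6 had 249 in TAP and 22 in ribo depletion, at 3.89 (3.29 to 4.62). TGL2 had 386 and 191, at 1.43 (1.18 to 1.69). RPC17 had 29 and 25 counts in these tables, at 0.63 (−0.19 to 1.47), and was 2-fold higher only with total counts (1.92).

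The identifiers that were strongly lower with CIP therefore did not share a direction in this comparison. MIC19 and TGL2 have the same gap of 178 bp to a tRNA gene and overlapping CIP intervals, but MIC19 was lower and TGL2 higher in TAP than in ribo depletion. YJL028W and RPC17 also share a gap, 195 bp, and their TAP over ribo depletion intervals do not overlap.

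For CIP/TAP over ribo depletion, 4 members were measured, of which 3 were at least 2-fold lower and 0 higher, beside 35.6% and 36.4% of all 1700 measured identifiers. YER137C had 116 counts in CIP/TAP and 47473 in ribo depletion, at −8.36 (−8.64 to −8.11). MIC19 had 6 and 1016, at −6.98 (−8.54 to −5.97), and TGL2 had 14 and 191, at −3.41 (−4.36 to −2.68).

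The interval of TGL2 lies above those of YER137C and MIC19, which overlap each other, whereas in CIP/TAP over TAP all 3 overlapped. PMT7 had 47 counts in CIP/TAP and 111 in ribo depletion, at −0.92 (−1.45 to −0.43), within 2-fold, and at 0.13 with total counts. COQ6 had 26 and 22 counts, 2 short of the minimum, and its interval of −0.33 to 1.44 spans 0. RPC17 had 1 and 25, and YJL028W (0 and 1) and YIL102C (4 and 0) had too few counts to describe.

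**Figure D4:**
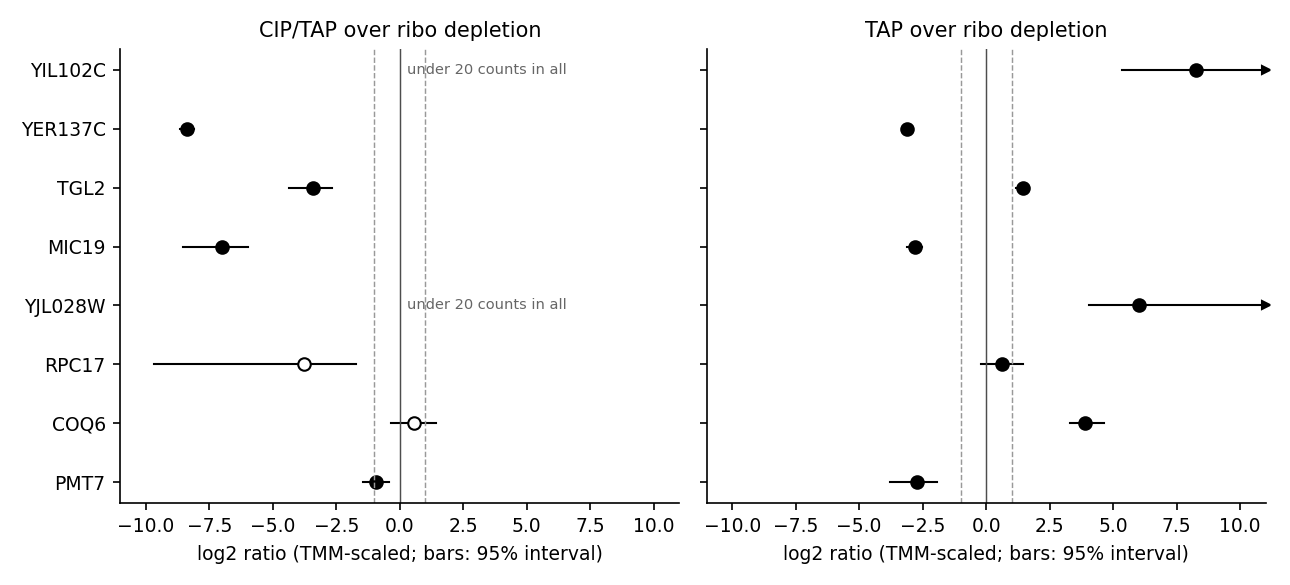
Log2 ratio of CIP/TAP over ribo depletion (left) and TAP over ribo depletion (right) for the 8 identifiers, with 95% counting intervals; open circles had fewer than 50 counts and arrowheads mark intervals past the axis. On the right the points lie on both sides of 0, from −3.11 for YER137C to YIL102C, which is at 0 in ribo depletion and whose point depends on the 0.5 added to each count.

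The 7 tRNA members are part of 24 identifiers with a divergent tRNA gene within 500 bp. They held 50.8% of the counts of these 24 in CIP/TAP, 71.7% in TAP and 19.3% in ribo depletion. The 7 were chosen with their counts known, so these shares test nothing. In ribo depletion, FAR3 alone held 4321 of the 5724 counts of the other identifiers. Of the 17 others, 5 were at 0 in every table. FYV6 and FAR3 were measured for CIP/TAP over TAP though they are not among the 8. FYV6 had 34 counts in CIP/TAP and 140 in TAP, at −2.21 (−2.81 to −1.68), and FAR3, a gene of pheromone-induced cell cycle arrest, had 12 and 111, at −3.34 (−4.39 to −2.53). FYV6 thus lost less than YER137C, TGL2, YIL102C, MIC19, YJL028W and COQ6, whose intervals lie below its own.

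PTR3 beside SUP6, a gene of amino acid sensing, had 1 count in CIP/TAP and 48 in TAP, and NPR3, a regulator of TORC1, had 1 and 32. Both were lower in TAP than in ribo depletion, where PTR3 had 922 counts and NPR3 214, at −3.83 (−4.29 to −3.42) and −2.30 (−2.90 to −1.78). FAR3 was also lower, with 111 counts in TAP against 4321 in ribo depletion (−4.85, −5.15 to −4.59), while FYV6 had 140 and 209 and was within 2-fold. The 4 measured others thus had 3 lower and 0 higher in TAP over ribo depletion.

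CDC26 and YIL014C-A, named after their values were seen, are close to their tRNA genes (202 and 221 bp) and had few counts that differed less between the libraries. CDC26 had 13 counts in CIP/TAP and 25 in TAP, at −1.10 with an interval of −2.22 to −0.11, all of it below 0. YIL014C-A had 24 and 22. The interval of YIL014C-A, −0.95 to 0.85, spans 0 and lies within 2-fold. ERG2, a sterol isomerase gene 80 bp from RNA170, another polymerase III gene, had 37 counts in CIP/TAP and 19 in TAP, at 0.76 (−0.06 to 1.66). PMT7 was therefore the sole identifier of this kind, among those measured, at least 2-fold higher with CIP.

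Within 500 bp, fewer identifiers had TAP counts where the tRNA gene lay farther off. Of 14 identifiers with a gap under 300 bp, 6 of them members, 12 had at least 10 TAP counts, 6 had at least 10 in CIP/TAP and 8 in ribo depletion. The TAP count exceeded the CIP/TAP count, unscaled, in 13 of these 14, and YIL014C-A was the exception. The 13 include identifiers with fewer than 10 counts in every library, too few to describe. They also include the 6 members, which were chosen with their counts known. The share of all identifiers with more TAP than CIP/TAP counts was not computed, so this number tests nothing. Of 10 with a gap of 300 to 500 bp, PMT7 alone had any TAP counts. CIP/TAP exceeded TAP in PMT7 and in COG2, PRK1 and RGI2, named after their values were seen, which had 6, 1 and 1 counts in CIP/TAP and were at 0 in TAP, too few to describe. The summed counts were 138 in CIP/TAP, 1341 in TAP and 6934 in ribo depletion for the nearer group, and 55, 12 and 156 for the farther group. Of 35 identifiers with a divergent tRNA gene at 501 to 1000 bp, 9 had at least 10 TAP counts (25.7%, exact 95% interval 12.5 to 43.3%). At 300 to 500 bp 1 of the 10 did (0.253 to 44.5%). These intervals overlap, so whether the decline goes on past 500 bp cannot be told from these counts. Identifiers beside divergent protein-coding genes also had fewer counts with distance, with at least 10 TAP counts in 693 of 799 (86.7%) under 300 bp, 416 of 636 (65.4%) at 300 to 500 bp and 265 of 982 at 501 to 1000 bp.

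Identifiers with counts were more frequent beside divergent than beside tandem tRNA genes. Those with a tandem protein-coding neighbour were not counted here, so whether the contrast is particular to tRNA genes was not tested. Among the 24 with a divergent tRNA gene within 500 bp, 7 had at least 10 counts in CIP/TAP (29.2%, exact 95% interval 12.6 to 51.1%), 13 had as many in TAP (54.2%, 32.8 to 74.4%) and 10 had as many in ribo depletion (41.7%, 22.1 to 63.4%). With SCR1 and RNA170 included, the numbers were 9, 15 and 11 of 26. For 100 identifiers with a tRNA gene as tandem upstream neighbour in the same range, the shares were 6% (2.23 to 12.6%), 5% (1.64 to 11.3%) and 7% (2.86 to 13.9%). For 1435 identifiers with a divergent protein-coding neighbour they were 74.1%, 77.3% and 70.9%, and the median log2 ratio of CIP/TAP over TAP was 0.15 over the 1052 of these that were measured.

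**Figure D5:**
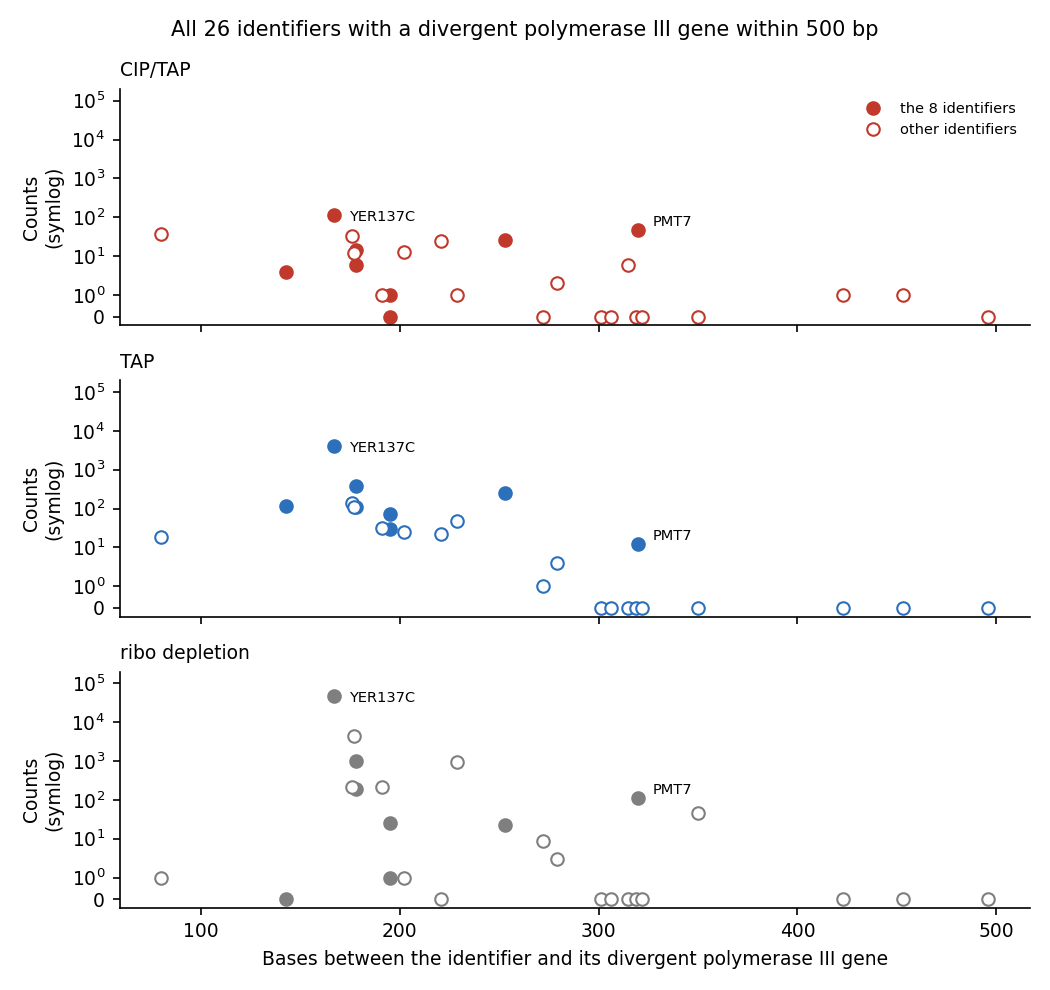
Counts (symmetric log axis, linear below 1) in CIP/TAP, TAP and ribo depletion for the 26 identifiers with a divergent polymerase III gene within 500 bp, against the bases between them; filled points are the 8 identifiers and open points the others. From 300 bp on, PMT7 is the single point above 0 in TAP.

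Among 1231 other identifiers with at least 200 counts over the 3 tables, those whose profile over the tables lay nearest to YER137C were DFP3, MAS1 and PTR3, at 0.33, 0.53 and 0.54 (Euclidean distance of log2 CPM centred on each identifier's mean). DFP3, with 0 counts in CIP/TAP, 19 in TAP and 280 in ribo depletion, has a tRNA gene as divergent neighbour 985 bp away, and PTR3 has SUP6 at 229 bp, while the divergent neighbour of MAS1 is the protein-coding gene SHH4 at 628 bp. For TGL2 the nearest were DMO2, ARP6 and RUD3 at 0.43, 0.95 and 1.01, all with a protein-coding gene as divergent upstream neighbour (CMR1, SMC4 and RFC1). DMO2 had 7 counts in CIP/TAP, 131 in TAP and 76 in ribo depletion. These distances rest on 3 tables. DFP3 and MAS1 were at 0 in CIP/TAP and PTR3 had 1 count there, so their distances to YER137C depend on the 0.5 added to each count.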

How the data were processed

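Counts came from 3 tables of SMORE-seq of wild-type cells; the other 12 of the 17 samples were not analysed here. Per the file headers, the deposited columns are counts per gene identifier, and their values are whole numbers that were not normalized. Named without role or order in the submitters' processing notes are sacCer3, featureCounts, bedtools, BWA 0.6.2 and bcl2fastq. The sources used here do not state how the 3 ribo depletion samples were combined.

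Positions and neighbours came from the R64 gene table, the assembly sacCer3 names (5794 identifiers matched), and strand from the W or C of systematic names. Genes wholly beyond the 5′ end were considered. For each pair of tables, all identifiers were scaled with edgeR 4.0.16 (TMM, R 4.3.3), and log2 of (count + 0.5) over the scaled size was compared where both tables held at least 50 counts together. Ratios past 2-fold were counted. Intervals are exact 95% Clopper-Pearson intervals conditional on the summed count (scipy 1.17.1). The labels describe no molecular identifiers, so intervals and the floor of 3 counts per table, used for bounds against 0, cover counting error only. DESeq2 1.42.0 size factors were an alternative. The members, lists and tests were chosen with earlier results of these data known. Besides the 8 members and their neighbours, the text names other identifiers beside polymerase III genes with at least 50 counts in a table or pair, and the 3 nearest profiles to YER137C and TGL2; CDC26, YIL014C-A, COG2, PRK1 and RGI2 fall outside that rule. No sequences are printed.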

Additional observations from a re-analysis of the deposited data

How the results depend on the processing

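No paired analysis was possible because no group had more than 1 table of values, so no replicate could be left out or matched. No member that was at least 2-fold higher or lower changed direction under total counts, upper-quartile scaling, DESeq2 size factors, TMM without the identifiers over 5% of a table, other count minimums or 5 added to each count. Of 95 member ratios recomputed with another scaling or added count, 16 moved outside their counting interval; a count minimum changes no ratio. With total counts the TAP over ribo depletion ratio of YER137C became −1.83, that of MIC19 −1.52 and that of PMT7 −1.45. With 5 added, YJL028W in CIP/TAP over TAP was at −4.13 and YIL102C in TAP over ribo depletion at 4.99. A minimum of 200 counts left 3 members lower and 0 higher in CIP/TAP over TAP (YER137C, TGL2 and COQ6), since fewer members were measured. Beside them, 5.40% of all identifiers at that minimum were lower and 13.5% higher. In TAP over ribo depletion the same minimum left 2 members lower and 2 higher, beside 47.2% and 20.1% of all identifiers. With no minimum, 5 members were lower and 1 higher in CIP/TAP over ribo depletion, beside 38.0% and 43.4% of all identifiers at that setting. The added calls rest on few counts in CIP/TAP and ribo depletion, namely 0 and 1 for YJL028W, 4 and 0 for YIL102C, and 1 and 25 for RPC17. Within 1000 bp of a polymerase III gene, 20, 24 and 23 of 61 identifiers had at least 10 counts in CIP/TAP, TAP and ribo depletion (32.8%, 39.3% and 37.7%), against 9, 15 and 11 of 26 within 500 bp (34.6%, 57.7% and 42.3%). Depth limits YIL102C, YJL028W and RPC17 most, with 0 to 4 counts in CIP/TAP.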
